A study of Mus musculus with 18 samples.

Results

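The mitochondrial carrier family, whose genes carry the symbol Slc25a followed by a number, was described in brown adipose tissue (BAT) and white adipose tissue (WAT) of mice with raised human FXR and of their controls. Members were all genes with such a symbol among the probe sets that the platform annotation pairs with exactly 1 gene, and a gene with several probe sets was represented by its brightest. This gave 46 of 19937 genes, measured by 50 probe sets, and 3 members had more than 1 probe set. Affymetrix mouse gene arrays, each holding RNA of a single sample, covered 4 groups: BAT of 5 control and 5 FXR mice, and WAT of 4 control and 4 FXR mice. All mice were males of the C57BL/6J background, 10 weeks old and kept on chow. Control mice were wild type, and FXR mice were adipose-specific human FXR overexpressors, FXR being the farnesoid X receptor, a nuclear receptor activated by bile acids. The labels used here name neither the promoter of the transgene, the number of founder lines, the WAT depot nor whether both tissues came from the same animals, and the extract text of control BAT 2 and control BAT 4 adds a feeding period of 6 weeks. The samples of a group are called biological replicates in the design text.

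Most proteins of the family sit in the inner mitochondrial membrane, where each exchanges a particular solute, such as ADP for ATP, phosphate, citrate, malate, glutamate, acylcarnitine or a cofactor, between the cytosol and the matrix. They share a fold built from repeated pairs of membrane helices and are brought into the membrane by the TOM complex, the small Tim chaperones and the TIM22 complex. In brown adipocytes these carriers feed fatty acids, amino acids and nucleotides to the respiration that Ucp1, itself a member of this protein family under another name, turns into heat. In white adipocytes the citrate and dicarboxylate carriers are known for their part in exporting carbon for fat synthesis and glycerol formation.

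The regions upstream of a few members are shown because 13 members fell together in BAT and because 1 member, Slc25a12, stood far above the others among those that rose. RefSeq promoter windows of build GRCm38.p6, each of 300 bases with 250 before and 50 after the start site, were found for 36 of the 46 members (46 windows) and for 9 of the 13 that fell. Of these 9, 4 with small adjusted p were taken: Slc25a39 (chr11:102407518-102407767, minus strand), Slc25a33 (chr4:149774268-149774517, minus strand), Slc25a20 (chr9:108661886-108662135, plus strand) and Slc25a17 (chr15:81360766-81361015, minus strand). Slc25a22, which has several windows and a smaller adjusted p than Slc25a20 and Slc25a17, was not printed. They are printed with Slc25a12 (chr2:71367756-71368005, minus strand), each as the 250 bases that end just before the start site, 5′ to 3′, with GC boxes (GGGCGG on either strand) and the nuclear receptor motif AGGTCA on either strand in capitals.
Slc25a39: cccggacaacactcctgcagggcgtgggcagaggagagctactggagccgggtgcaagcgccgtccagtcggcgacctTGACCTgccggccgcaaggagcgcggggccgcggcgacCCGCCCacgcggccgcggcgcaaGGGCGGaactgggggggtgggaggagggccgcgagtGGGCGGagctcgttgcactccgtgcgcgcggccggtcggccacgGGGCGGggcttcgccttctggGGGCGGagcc
Slc25a33: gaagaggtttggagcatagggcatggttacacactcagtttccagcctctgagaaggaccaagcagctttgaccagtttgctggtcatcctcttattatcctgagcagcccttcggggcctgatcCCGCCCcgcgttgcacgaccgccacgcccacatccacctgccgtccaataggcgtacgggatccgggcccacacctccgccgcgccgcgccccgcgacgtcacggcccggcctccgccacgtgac
Slc25a20: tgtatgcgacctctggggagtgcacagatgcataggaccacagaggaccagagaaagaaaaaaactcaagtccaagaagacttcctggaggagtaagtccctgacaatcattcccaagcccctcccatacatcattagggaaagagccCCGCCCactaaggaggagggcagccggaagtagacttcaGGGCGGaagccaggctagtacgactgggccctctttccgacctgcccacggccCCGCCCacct
Slc25a17: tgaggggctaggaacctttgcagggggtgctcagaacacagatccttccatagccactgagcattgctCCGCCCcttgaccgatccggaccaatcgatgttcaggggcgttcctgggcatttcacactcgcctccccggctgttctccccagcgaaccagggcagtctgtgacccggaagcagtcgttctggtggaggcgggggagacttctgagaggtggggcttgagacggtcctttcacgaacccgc
Slc25a12: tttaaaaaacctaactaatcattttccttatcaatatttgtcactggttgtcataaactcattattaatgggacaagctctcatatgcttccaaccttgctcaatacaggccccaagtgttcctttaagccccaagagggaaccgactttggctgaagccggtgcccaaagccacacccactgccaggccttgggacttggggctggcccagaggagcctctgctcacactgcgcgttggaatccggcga
The Slc25a39 stretch held 5 GC boxes and was 77.2% G or C, the Slc25a20 stretch held 3 GC boxes, those of Slc25a33 and Slc25a17 held 1 each, and that of Slc25a12 held 0 and was 49.6% G or C.

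Over the full windows, both strands searched, the GC box GGGCGG was found in 30 of 36 members (83.3%) and in 38.2% of all 27025 genes with a window. It was found in 9 of 9 members that fell in BAT and in 21 of 27 others (77.8%), so the members had it often whether they fell or not. The median G and C content of the members' windows was 59.3%, against 52.7% over all windows. CCAAT was found in 19 members (52.8%, all genes 41.1%) and AGGTCA, which also lies within TCAAGGTCA, in 4 (11.1%, all genes 18.1%). The cyclic AMP response element TGACGTCA was found in 2 members, Slc25a25 and Slc25a36 (5.56%, all genes 2.03%). TCAAGGTCA (all genes 0.466%), the NRF1 motif GCGCATGCG (all genes 1.95%) and the inverted repeat of AGGTCA with a spacer of 1 base that FXR is known to bind (all genes 0.0111%) were in 0 of 36 members' windows. A match describes the letters of the window only.

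The deposited values are linear intensities, and levels are given below as log2(intensity + 1). Medians per array ran from 93.1 to 97.8 in control BAT and from 97.6 to 99.9 in FXR BAT. In WAT they ran only from 60.5 to 61.7. Probe sets within 1.5-fold of an array's 1% quantile, called dim here, made up 28.7% to 34.9% of BAT arrays and 58.2% to 62.8% of WAT arrays. Changes of dim genes are compressed. Among the members, 5 had group means in that dim range in BAT (Slc25a2, Slc25a21, Slc25a31, Slc25a53 and Slc25a54) and 15 in WAT, among them Slc25a27, Slc25a33 and Slc25a34. The tissue labels were borne out by markers: the mean level of 13 brown adipocyte genes was 9.97 in control BAT and 6.07 in control WAT, where 10 to 11 of them were dim, and that of 9 white adipocyte genes was 7.36 and 9.16. The probe set of the mouse gene Nr1h4, which encodes FXR, differed by 0.05 (SE 0.03) in BAT with an adjusted p = 0.408 in limma, and whether it reads the human transcript was not tested.

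The first question was which carriers changed with FXR in brown fat. In BAT, 13 of 46 members fell and 3 rose at an adjusted p below 0.05 (limma, Benjamini-Hochberg over all 19937 genes). That was 28.3% lower against a background of 8.75% of all genes, and 6.52% higher against 7.01%. The other 30 members did not pass. The median difference, FXR minus control, was -0.06 on the log2 scale over the members and 0.01 over all genes, and members ranged from -0.54 to 1.37. Control and FXR arrays did not overlap for 16 members, 13 lower and 3 higher (Slc25a24, Slc25a27 and Slc25a29), against 12.2% of all genes. With each array centred on its own median, 18 members fell and 3 rose, and over all genes 4076 fell and 776 rose in place of 1744 and 1398. Members above 0, whether they passed or not, numbered 19 as deposited and 7 after centring. Quantile normalization gave 8 members that fell and 2 that rose (all genes 1371 and 1072), and without control BAT 2 and 4, 7 fell and 2 rose (all genes 712 and 704). In whole tissue, fewer cells of a type and less RNA per cell cannot be told apart.

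Other lists moved in the same BAT arrays, and their part in the carriers' changes was not tested. Of 11 general adipocyte genes 9 fell (median difference -0.30), with list means of 12.03 to 12.25 in control and 11.78 to 11.93 in FXR BAT. Of 13 brown adipocyte genes 9 fell and 1 rose, with list means of 9.78 to 10.09 and 9.28 to 9.38. All 16 macrophage genes rose (median 0.76), with list means of 7.06 to 7.41 in control and 7.87 to 8.04 in FXR BAT, and 10 of 11 fibroblast genes rose (median 1.39), with list means of 8.28 to 8.84 and 9.56 to 9.79. These 4 lists had 0 dim genes on every BAT array except for 1 macrophage gene on each control array. Of 10 endothelial genes 3 fell and 1 rose, and of 9 white adipocyte genes 3 rose. The background for every list here was 8.75% of all genes lower and 7.01% higher.

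The smallest adjusted p of the family in BAT was that of a single amino acid carrier, Slc25a44. Slc25a44 imports branched-chain amino acids into mitochondria and is known in brown fat for their use in heat production. Its level was 9.97, 9.93, 9.94, 9.96 and 9.85 on the 5 control BAT arrays and 9.53, 9.50, 9.40, 9.56 and 9.50 on the 5 FXR BAT arrays. Every FXR array lay below every control array. The fall was 1.35-fold (log2 difference -0.43, SE 0.04, adjusted p = 5.34e-05 in limma). Slc25a22, a carrier of glutamate with a proton, read 9.16, 9.23, 9.22, 9.14 and 8.98 in control BAT and 8.35, 8.69, 8.45, 8.86 and 8.74 in FXR BAT. Its groups did not overlap either, although FXR arrays spread more widely than control arrays, and it fell by 0.53 (SE 0.09, adjusted p = 0.00300). Among the other amino acid carriers, Slc25a38, which brings glycine in for haem synthesis, and Slc25a15, the ornithine carrier of the urea cycle, each fell by 0.16 (adjusted p = 0.0140 and 0.0371), while Slc25a2, Slc25a13, Slc25a18 and Slc25a29 lay between 0.02 and 0.10 and did not pass. Without control BAT 2 and 4 Slc25a38 no longer passed (adjusted p = 0.0886). The call of Slc25a15 was lost without control BAT 1, 2, 3 or 4 or without FXR BAT 2, with adjusted p up to 0.198 over all settings. In this group of 9 carriers, 4 fell and 1 rose, and the median difference was 0.02.

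**Figure D1:**
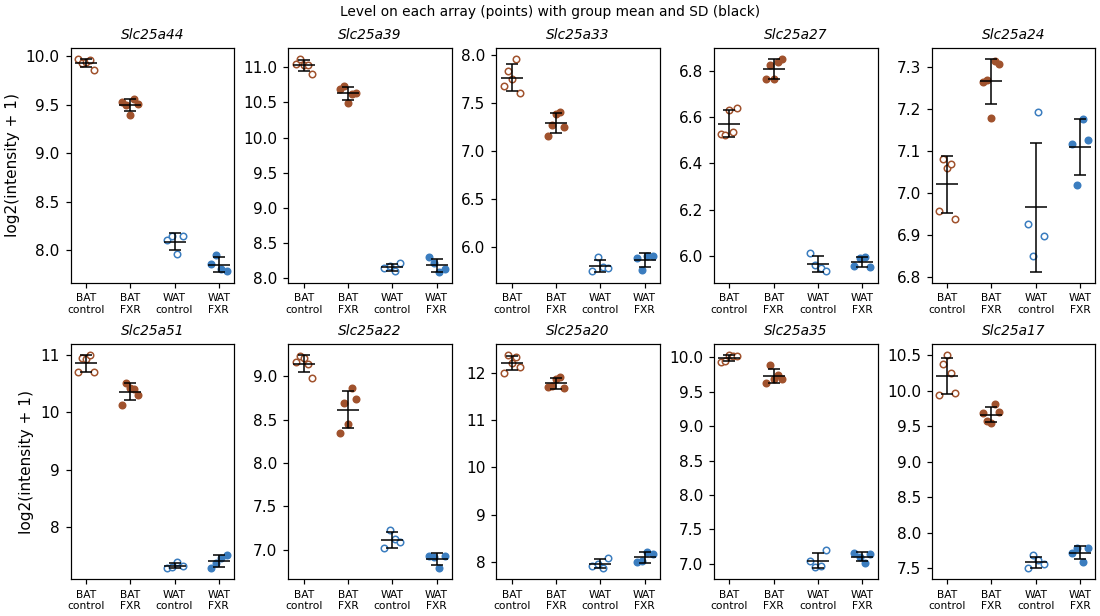
Level, log2(intensity + 1), of the 10 members with the smallest adjusted p in BAT on each of the 18 arrays, with group means and SD in black; open points are control and filled points FXR, brown for BAT and blue for WAT, and the vertical axes do not start at 0. In all 10 genes the 5 FXR BAT arrays lie wholly below the 5 control BAT arrays or, for Slc25a27 and Slc25a24, wholly above them.

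Carriers of carnitine, cofactors and nucleotides were the group with the lowest median, -0.41 over 9 measured members, of which 5 fell and 0 rose. Slc25a20, the carnitine-acylcarnitine carrier that brings fatty acids to the matrix for oxidation, read 11.99, 12.38, 12.22, 12.34 and 12.13 in control BAT and 11.70, 11.71, 11.88, 11.92 and 11.68 in FXR BAT. The highest FXR array, FXR BAT 4, lay just under the lowest control array, and the fall was 1.35-fold (-0.43, SE 0.08, adjusted p = 0.00354). Slc25a51, which imports NAD+, stood at 10.69, 10.95, 10.93, 11.00 and 10.70 in control and 10.13, 10.51, 10.43, 10.41 and 10.29 in FXR BAT. It fell by 0.50 (SE 0.08, adjusted p = 0.00217), again with no overlap. The pyrimidine nucleotide carrier Slc25a33 gave 7.68, 7.84, 7.75, 7.97 and 7.60 in control and 7.16, 7.27, 7.39, 7.41 and 7.25 in FXR BAT. All FXR arrays were below all control arrays, a difference of -0.47 (SE 0.07, adjusted p = 0.00128).

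Slc25a17 differs from the rest in place, since its protein works in the peroxisomal membrane, where it exchanges coenzyme A and related cofactors. Its control BAT arrays read 9.94, 10.38, 10.50, 10.25 and 9.97 and its FXR BAT arrays 9.69, 9.57, 9.55, 9.82 and 9.70. The groups did not overlap and the difference of -0.54 (SE 0.11, adjusted p = 0.00587) was the most negative of all 46 members. Slc25a16, which ranked below the 10 members given in full, fell by 0.41 (adjusted p = 0.0107). The remaining 4 were below 0 without passing: Slc25a42, a coenzyme A carrier, at -0.41 (SE 0.16, adjusted p = 0.109), and Slc25a26, Slc25a32 and Slc25a36 between -0.13 and -0.07. Under quantile normalization Slc25a20 no longer passed (adjusted p = 0.0942), and without control BAT 2 and 4, whose feeding text differs, neither did Slc25a17 (adjusted p = 0.0607) or Slc25a16 (adjusted p = 0.0780).

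Among carriers linked to iron and glutathione, 1 of 4 changed. Slc25a39, which imports glutathione, read 11.04, 11.12, 11.03, 11.03 and 10.90 in control BAT and 10.69, 10.73, 10.49, 10.61 and 10.63 in FXR BAT. Each FXR array was below each control array, and the fall was 1.31-fold (-0.39, SE 0.05, adjusted p = 0.000576). Its close relative Slc25a40 differed by 0.00 (95% interval -0.12 to 0.12, adjusted p = 0.989). The mitoferrins Slc25a37 and Slc25a28, which import iron, differed by 0.06 and -0.04 and did not pass.

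Of the 6 di- and tricarboxylate carriers, 2 fell and 0 rose. Slc25a35, whose substrate is not settled, read 9.92, 9.95, 10.03, 10.01 and 10.01 in control BAT and 9.62, 9.88, 9.68, 9.74 and 9.68 in FXR BAT. FXR BAT 2 came close to the lowest control array but stayed below it, and the difference was -0.26 (SE 0.05, adjusted p = 0.00383). Slc25a11, the oxoglutarate-malate carrier of the malate-aspartate shuttle, read 10.02, 10.27, 10.18, 10.33 and 10.08 in control and 9.94, 9.92, 9.90, 10.00 and 9.81 in FXR BAT. The control and FXR values were close but separate, at -0.26 (SE 0.06, adjusted p = 0.0136). Neither passed under quantile normalization (adjusted p = 0.310 and 0.121), and Slc25a11 also did not pass without control BAT 2 and 4. The relative Slc25a34 stood at -0.42 (SE 0.15, adjusted p = 0.0807).

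Slc25a1, the citrate carrier that supplies cytosolic acetyl units for fat synthesis, showed a different spread. It read 12.14, 11.57, 11.81, 11.84 and 11.81 in control BAT and 11.99, 11.89, 10.62, 11.61 and 10.98 in FXR BAT. FXR BAT 3 and 5 lay below all control arrays, while FXR BAT 1, 2 and 4 lay among them. The mean difference of -0.42 (SE 0.24, adjusted p = 0.298) did not pass. Slc25a10, the dicarboxylate carrier, differed by 0.20 with a wide 95% interval of -0.38 to 0.78.

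Only 1 of 8 adenine nucleotide and phosphate carriers passed, and it rose. Slc25a24, a calcium-regulated carrier of ATP-magnesium and phosphate, read 6.96, 7.08, 7.06, 7.07 and 6.94 in control BAT and 7.26, 7.27, 7.18, 7.31 and 7.31 in FXR BAT. All FXR arrays were above all control arrays, a 1.19-fold rise (0.25, SE 0.04, adjusted p = 0.00212). Slc25a5, an exchanger of ADP for ATP, read 12.30, 12.28, 12.33, 12.50 and 12.08 in control and 12.12, 12.19, 11.88, 12.12 and 11.72 in FXR BAT. Its groups overlapped through control BAT 5, and its difference of -0.30 (SE 0.10, adjusted p = 0.0624) missed the threshold but passed when control BAT 5 (adjusted p = 0.0334) or FXR BAT 2 (0.0439) was left out, with centring (0.0250), with the replicate block (0.0194) and with all 18 arrays in 1 fit (0.0188). Its other probe sets gave -0.29 and -0.07.

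The muscle and heart form of that exchanger, Slc25a4, read 11.51, 11.57, 11.55, 11.57 and 11.34 in control BAT and 11.98, 11.58, 11.26, 11.90 and 11.26 in FXR BAT. FXR BAT 1 and 4 were well above all controls, FXR BAT 2 level with the highest of them and FXR BAT 3 and 5 below the lowest, and the mean difference was 0.09 (SE 0.14, adjusted p = 0.753). Slc25a25, a relative of Slc25a24, read 6.81, 6.89, 7.04, 7.01 and 6.74 in control and 7.05, 6.96, 6.81, 6.91 and 6.92 in FXR BAT. These groups overlapped, with a difference of 0.03 (SE 0.06, adjusted p = 0.815) whose sign turned under quantile normalization and centring. The phosphate carrier Slc25a3 stood at -0.18 (adjusted p = 0.188), and Slc25a23, Slc25a31 and Slc25a41 between -0.09 and 0.04.

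Of the 3 carriers that resemble uncoupling proteins, Slc25a27, also called Ucp4 and known mainly from brain, rose. It read 6.53, 6.52, 6.63, 6.54 and 6.64 in control BAT and 6.77, 6.83, 6.76, 6.84 and 6.85 in FXR BAT. The groups were separate, and the rise was 1.18-fold (0.24, SE 0.04, adjusted p = 0.00133). Its control BAT mean of 6.57 lay below the mean array median of 6.76 and not far above the mean dim limit of 6.27. Over all settings its difference ran from 0.16 to 0.25. Slc25a14 and Slc25a30 differed by 0.02 and 0.12 and did not pass. Among the 7 members with other or unassigned roles, Slc25a46, an outer membrane protein linked to mitochondrial shape, read 9.83, 10.02, 9.90, 10.01 and 9.81 in control and 9.56, 9.53, 9.78, 9.67 and 9.63 in FXR BAT. FXR BAT 3 came nearest to the controls, but no FXR array reached them, and the fall was 0.28 (SE 0.06, adjusted p = 0.00706). Its call was lost under quantile normalization and without control BAT 2 and 4 (adjusted p up to 0.121 over all settings). The other 6 lay between -0.14 and 0.08.

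**Figure D2:**
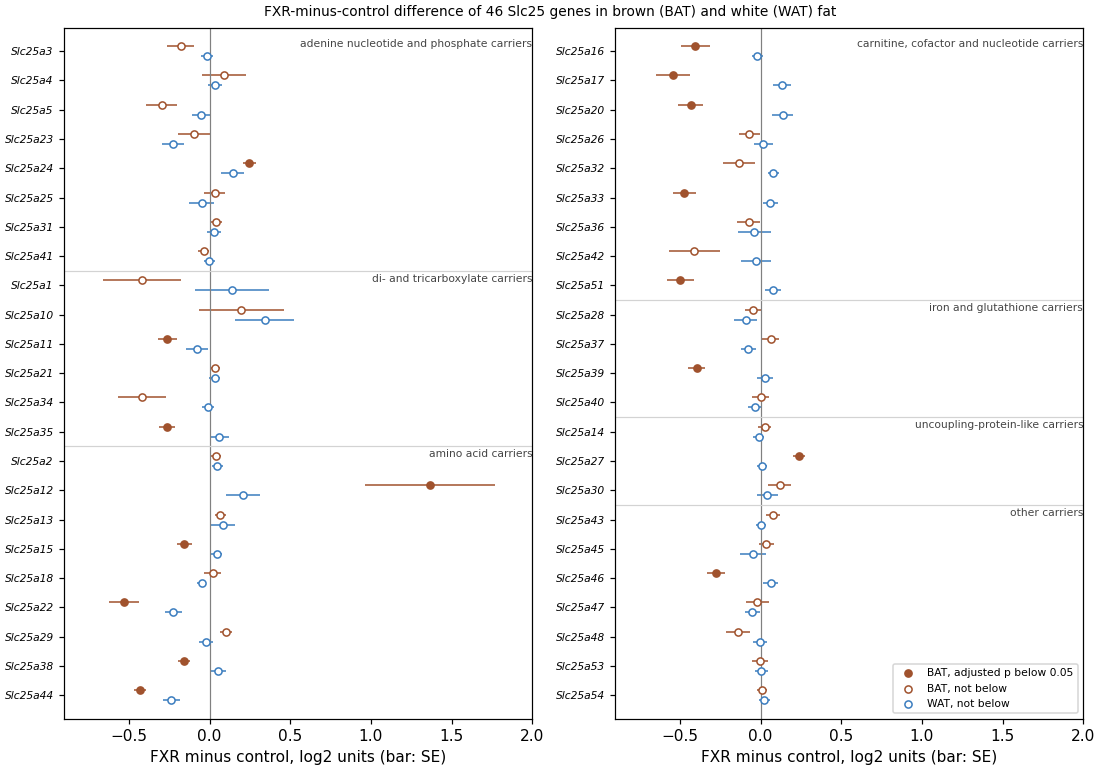
FXR-minus-control difference in log2 units of all 46 members in BAT (brown) and WAT (blue), grouped by role; points are differences of group means, bars are SE, and filled points have an adjusted p below 0.05. The filled BAT points lie mostly left of 0, with Slc25a12 at 1.37 far to the right, and no WAT point is filled.

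Slc25a12 had the largest difference of any member and is described here although it lay outside the rule for full values, as it was chosen after its values were seen. It encodes the aspartate-glutamate carrier of the malate-aspartate shuttle that is known from muscle and brain. Control BAT read 7.29, 7.26, 7.77, 7.30 and 7.19 and FXR BAT 9.71, 8.80, 7.49, 9.76 and 7.90. FXR BAT 1, 2 and 4 stood far above the rest, and FXR BAT 3 lay below control BAT 3, so the groups overlapped. The mean rise was 2.58-fold (1.37, SE 0.40, adjusted p = 0.0416). The call was kept when FXR BAT 3 or FXR BAT 5 was left out and lost when any other single BAT array was left out, and adjusted p reached 0.276 over all settings.

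Skeletal muscle genes varied in the same arrays. The mean level of 29 such genes was 7.60, 7.55, 8.42, 7.00 and 6.85 on control BAT arrays and 10.51, 9.79, 6.94, 10.57 and 8.19 on FXR BAT arrays. FXR BAT 1, 2 and 4 were the highest and control BAT 3 the highest of its group, which was also so for Slc25a12. In BAT all 29 genes differed upward, by 0.78 to 2.76 with a median of 1.72. Of them 22 had an unadjusted p below 0.05 in limma (all genes 5622 of 19937, in either direction). At an adjusted p below 0.05 only 2 passed, Myh1 and Myh2, both muscle myosins (6.9%, all genes 7.01% higher). At most 3 of the list were dim on any BAT array, and in WAT the list means lay between 5.97 and 6.02 with 20 to 26 genes dim. The part of muscle RNA in the carriers' values was not tested.

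A fit without FXR BAT 1, 2 and 4, chosen after the muscle values were seen, set only FXR BAT 3 and 5 against the 5 control BAT arrays. In it 13 members fell and 1 rose. Of these, 9 that fell and 1 that rose were the same as with all arrays. Over all genes 993 fell and 920 rose in place of 1744 and 1398. The difference of Slc25a12 was then 0.33 (adjusted p = 0.276). Slc25a1 then differed by -1.03 (adjusted p = 0.00300), Slc25a5 by -0.50 (adjusted p = 0.0134), Slc25a3 by -0.37 (adjusted p = 0.0147) and Slc25a4 by -0.25 (adjusted p = 0.0493), all of which then passed. For each of these genes FXR BAT 3 and 5 lay below all control BAT arrays. The arrays kept were thus the low ones, and the passing of these genes is no separate support for a fall. Slc25a24 did not pass (adjusted p = 0.0519), nor did Slc25a15, Slc25a16 (adjusted p = 0.166), Slc25a38 and Slc25a46. Of members that passed in neither fit, the sign turned for Slc25a10 (to -0.43), Slc25a23 (to 0.12), Slc25a28 (to 0.07), Slc25a47 (to 0.05), Slc25a53 and Slc25a25 (to 0.03 and -0.03) and Slc25a26 (to 0.01). Slc25a44, Slc25a39, Slc25a33, Slc25a51, Slc25a22 and Slc25a27 kept their calls in each of the 20 settings tried in BAT.

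**Figure D3:**
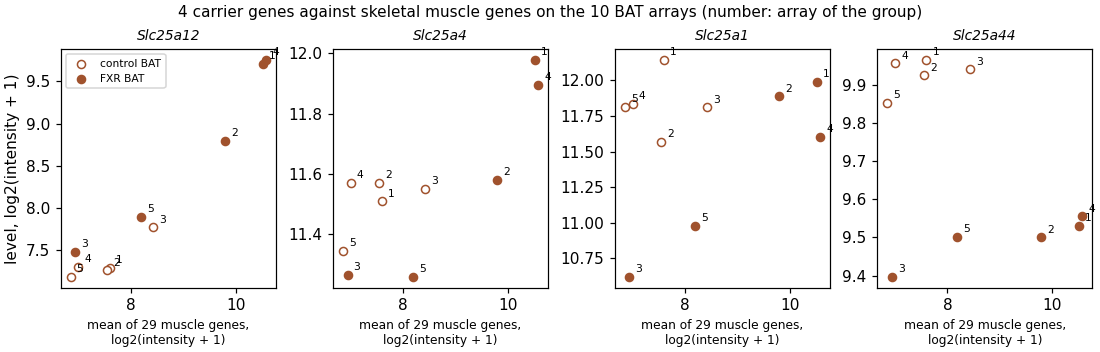
Level of Slc25a12, Slc25a4, Slc25a1 and Slc25a44 against the mean of 29 skeletal muscle genes on the 10 BAT arrays, both as log2(intensity + 1), with open points for control, filled points for FXR and the array's number beside each; the axes do not start at 0. Slc25a12 is high where the muscle genes are high, and FXR BAT 3 and 5 are lowest for Slc25a1. For Slc25a44 the FXR arrays lie between 9.40 and 9.56. Among them FXR BAT 3 is lowest and FXR BAT 4 highest, as for the muscle genes.

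The machinery that inserts carriers into the inner membrane was given by a list of 12 measured genes. Of these, 11 fell in BAT (91.7%, all genes 8.75%) and 0 rose (all genes 7.01%), with a median difference of -0.31. Tomm40, the channel of the outer membrane, ranged from 9.23 to 9.42 in control and from 8.87 to 8.97 in FXR BAT and fell by 0.38 (SE 0.04, adjusted p = 0.000156). Timm8b, a small chaperone of the intermembrane space, ranged from 9.00 to 9.23 and from 8.50 to 8.75 and fell by 0.46 (SE 0.06, adjusted p = 0.000628). Tomm22, a receptor of the outer membrane complex, fell by 0.19 (SE 0.04, adjusted p = 0.00705). The member of the list that did not pass was Agk, a lipid kinase of the TIM22 complex, at -0.09 (adjusted p = 0.467). In WAT 0 of 12 passed, 2 of them at an unadjusted p below 0.05, with a median of 0.00.

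Among 21 other transporters of the mitochondrial membranes, 9 fell and 3 rose in BAT (42.9% and 14.3%, all genes 8.75% and 7.01%). Sfxn5, a sideroflexin, fell by 0.69 (SE 0.06, adjusted p = 5.11e-05), ranging from 9.53 to 9.78 in control and from 8.82 to 9.07 in FXR BAT. Letm1, a cation exchanger of the inner membrane, fell by 0.66 (SE 0.06, adjusted p = 5.37e-05), and the serine transporter Sfxn1 fell by 0.39 (SE 0.05, adjusted p = 0.000359). Ucp1 fell by 0.48 (adjusted p = 0.00247), and Cpt2, which acts beside Slc25a20 in bringing acyl groups into the matrix, fell by 0.37 (adjusted p = 0.00578). Those that rose were Slc8b1, Sfxn3 and Cpt1a, by 0.40, 0.27 and 0.33. Cpt1a makes the acylcarnitines that Slc25a20 carries and differed in sign from Slc25a20 and Cpt2. Its level in control BAT was 7.37, against 10.95 for Cpt2. Cpt1b, also on the list, had no probe set paired with exactly 1 gene, so its change is not known here. In WAT, Sfxn1 fell by 0.84 (SE 0.08, adjusted p = 0.00437) and Cpt1a rose by 0.27 (adjusted p = 0.0467).

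**Figure D4:**
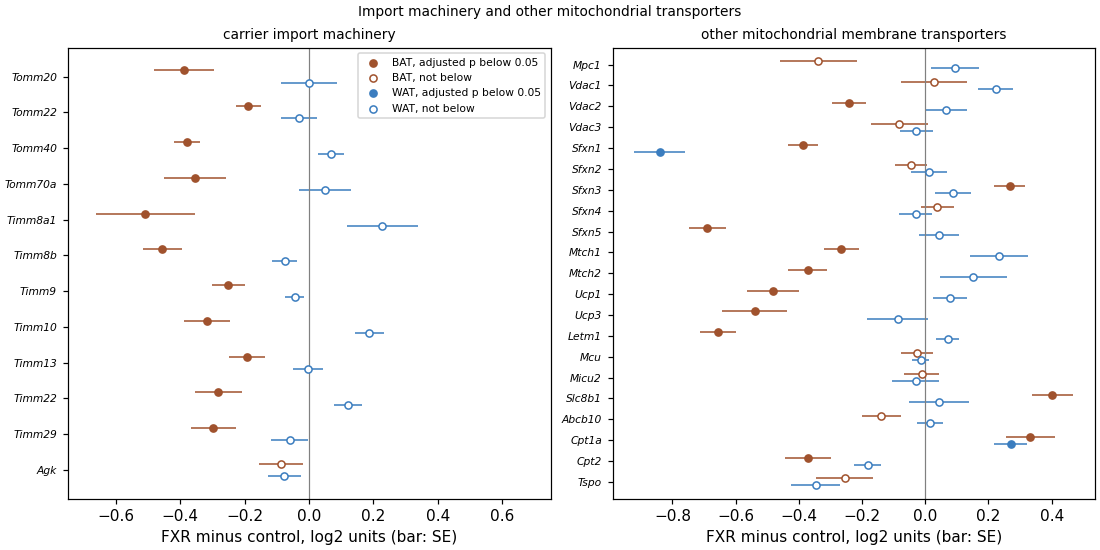
FXR-minus-control difference in log2 units of 12 genes of the carrier import machinery (left) and 21 other mitochondrial membrane transporters (right) in BAT (brown) and WAT (blue); bars are SE and filled points have an adjusted p below 0.05. On the left all BAT points lie below 0 and all but Agk are filled, while no WAT point is filled.

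The second question was whether the same carriers changed in white fat. In WAT, 0 of 46 members passed, against a background of 0.873% of all genes higher and 0.456% lower in limma, and 5 members had an unadjusted p below 0.05. The median difference was 0.01 over the members and 0.00 over all genes, and members ranged from -0.24 to 0.34. The 95% intervals extended 0.07 to 0.52 to either side of the difference, with a median of 0.11, and 15 members were dim. Control and FXR arrays did not overlap for 2 members, Slc25a44 and Slc25a22, against 7.78% of all genes. In FXR WAT 1 the mean of 5 epididymis genes was 6.88, against 5.74 to 5.91 on the other FXR WAT arrays, and its part in the members' values was not tested.

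Slc25a44 had the smallest p of the family in WAT as well. It read 8.11, 8.14, 7.96 and 8.15 in control WAT and 7.86, 7.95, 7.81 and 7.78 in FXR WAT. FXR WAT 2 lay just below control WAT 3, and the difference was -0.24 (SE 0.05, adjusted p = 0.0770), which passed without control WAT 3 (-0.28, adjusted p = 0.0296) and in a fit of all 18 arrays (adjusted p = 0.0114). Slc25a22, which was named after its values were seen, read 7.01, 7.23, 7.12 and 7.09 in control and 6.92, 6.92, 6.78 and 6.93 in FXR WAT. The lowest control array was above all FXR arrays, at -0.23 (SE 0.05, adjusted p = 0.0892). Both carriers passed as lower in BAT, but neither passed in the main WAT fit. They were the 2 of 46 members without overlap in WAT, where 7.78% of all genes had none.

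Slc25a1 read 9.87, 9.13, 8.81 and 9.54 in control WAT and 9.69, 9.73, 9.07 and 9.41 in FXR WAT. The FXR values lay within the control range, and the difference of 0.14 had a 95% interval of -0.38 to 0.66. Slc25a4 read 8.47, 8.53, 8.63 and 8.65 in control and 8.62, 8.59, 8.62 and 8.57 in FXR WAT, a difference of 0.03 (adjusted p = 0.840). Slc25a5 read 10.39, 10.46, 10.40 and 10.48 in control and 10.38, 10.48, 10.22 and 10.43 in FXR WAT, a difference of -0.05 (adjusted p = 0.780). Both pairs of groups overlapped. Slc25a25 read 6.82, 6.87, 7.15 and 6.88 in control and 6.75, 6.96, 6.91 and 6.91 in FXR WAT. Control WAT 3 was the highest, and the difference was -0.05 (adjusted p = 0.868).

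The difference between the tissues was tested directly as the WAT change minus the BAT change over all 18 arrays. It passed for 10 members, 9 higher and 1 lower (19.6% and 2.17% of members), against 4.44% and 2.02% of all genes. With centred arrays it passed for 11 higher and 1 lower, and over all genes for 1627 higher and 245 lower in place of 885 and 403. Under quantile normalization it passed for 3 higher and 0 lower, and over all genes for 464 higher and 355 lower, and without control BAT 2 and 4 for 6 higher and 1 lower (all genes 487 and 240). The comparison shares its arrays with those above, so it is no separate support for them. Of the 9 carnitine, cofactor and nucleotide carriers 5 passed, and of the 8 adenine nucleotide and phosphate carriers 0 passed. In the import machinery 5 of 12 genes passed, all higher, and of the 21 other transporters 6 were higher and 1, Sfxn1, lower.

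Slc25a33 was dim in WAT, at 5.75, 5.90, 5.79 and 5.78 in control and 5.88, 5.76, 5.91 and 5.91 in FXR WAT. Its groups overlapped there, its WAT change was 0.06 and its BAT change -0.47, and the difference of changes was 0.53 (SE 0.09, adjusted p = 0.00262 in limma). A change at that level would be compressed. Slc25a39 was well above the floor in WAT, at 8.15, 8.17, 8.10 and 8.22 in control and 8.30, 8.22, 8.09 and 8.14 in FXR WAT. The groups overlapped, and the difference of changes was 0.42 (SE 0.07, adjusted p = 0.00275). Slc25a51 read 7.29, 7.31, 7.40 and 7.33 in control and 7.29, 7.37, 7.46 and 7.51 in FXR WAT. With overlapping WAT groups its difference of changes was 0.57 (SE 0.11, adjusted p = 0.00409).

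Slc25a20 read 7.92, 7.95, 7.86 and 8.09 in control WAT and 7.99, 8.01, 8.21 and 8.16 in FXR WAT. The WAT groups overlapped, with a change of 0.14 there, and the difference of changes was 0.57 (SE 0.11, adjusted p = 0.00466). Slc25a27, dim in WAT, read 6.01, 5.96, 5.95 and 5.94 in control and 5.96, 5.99, 5.99 and 5.95 in FXR WAT. It was the member with a negative difference of changes, -0.23 (SE 0.05, adjusted p = 0.00628). The other 5 that passed were Slc25a17, Slc25a46, Slc25a35, Slc25a38 and Slc25a16, between 0.22 and 0.68. Under quantile normalization the difference of changes passed only for Slc25a33, Slc25a51 and Slc25a17 of these 10, with an adjusted p = 0.241 for Slc25a39, 0.186 for Slc25a20, 0.0951 for Slc25a27, 0.199 for Slc25a46 and 0.470 for Slc25a35. Slc25a46 also did not pass without control BAT 2 and 4 (adjusted p = 0.0587). The call of Slc25a38 was kept in 8 of 18 fits that left out 1 array and that of Slc25a16 in 3 of 18, those without control BAT 1, control BAT 5 or FXR BAT 3. For Slc25a44, which fell in BAT and whose WAT groups were also separate, the difference of changes was 0.19 (SE 0.06, adjusted p = 0.0821) and did not pass.

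The last comparison set the tissues against each other. As deposited, 42 of 46 members were higher in control BAT than in control WAT and 1 lower, but so were 94.8% and 1.98% of all genes, and the median difference over all genes was 0.59, against 1.26 over the members. With each array centred on its median, 27 members were higher and 14 lower, against 36.2% and 46.8% of all genes, and the median was 0.60 over the members and -0.07 over all genes. Between FXR BAT and FXR WAT, 43 members were higher and 0 lower as deposited (all genes 95.1% and 1.29%, medians 1.28 and 0.63), and 26 were higher and 12 lower after centring (all genes 32.1% and 48.6%, medians 0.55 and -0.10). The direction of a member near the centre therefore depends on the scaling, and the differences between tissues below are given both as deposited and centred.

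Slc25a20 had the largest difference between control tissues, 4.25 (SE 0.08, 19.1-fold, adjusted p = 1.96e-12) as deposited and 3.59 after centring, with control arrays at 11.99 to 12.38 in BAT and 7.86 to 8.09 in WAT. Slc25a51 followed with 3.52 (centred 2.86) and Slc25a11 with 3.10 (centred 2.44). The WAT arrays of Slc25a11 read 7.00, 7.03, 7.02 and 7.24 in control and 7.05, 6.95, 6.88 and 7.10 in FXR mice, far below its BAT arrays. Slc25a35 and Slc25a4 each differed by 2.94 (centred 2.28 each). The WAT arrays of Slc25a35 read 7.05, 6.96, 6.98 and 7.20 in control and 7.16, 7.10, 7.02 and 7.14 in FXR mice. None of these 5 overlapped between tissues in either genotype.

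Slc25a10 was the member that was lower in BAT as deposited, by 0.44 (SE 0.14, adjusted p = 0.0115), and its centred difference was -1.11. It read 8.23, 8.19, 8.36, 8.18 and 7.62 in control BAT, 9.00, 8.83, 7.53, 8.37 and 7.83 in FXR BAT, 8.77, 8.67, 8.24 and 8.57 in control WAT and 9.11, 9.31, 8.47 and 8.71 in FXR WAT. Control BAT 3 lay above control WAT 3, so even these groups overlapped. In FXR mice its difference of -0.59 did not pass as deposited (adjusted p = 0.0890) and was -1.31 after centring (adjusted p = 0.00239). Slc25a25, Slc25a24 and Slc25a45 did not pass as deposited (-0.03, 0.05 and -0.06) and after centring stood at -0.70, -0.61 and -0.73. Slc25a1, Slc25a5 and Slc25a44 were higher in control BAT by 2.50, 1.87 and 1.84 as deposited and by 1.84, 1.21 and 1.18 after centring, with Slc25a5 at 0.06 (adjusted p = 0.366) under quantile normalization. The other probe sets of Slc25a5 read 11.07 and 8.94 in control BAT and 8.27 and 6.82 in control WAT as deposited. In FXR mice Slc25a20 at 3.68 (centred 2.96) was again the highest difference of the family and Slc25a10 the lowest.

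**Figure D5:**
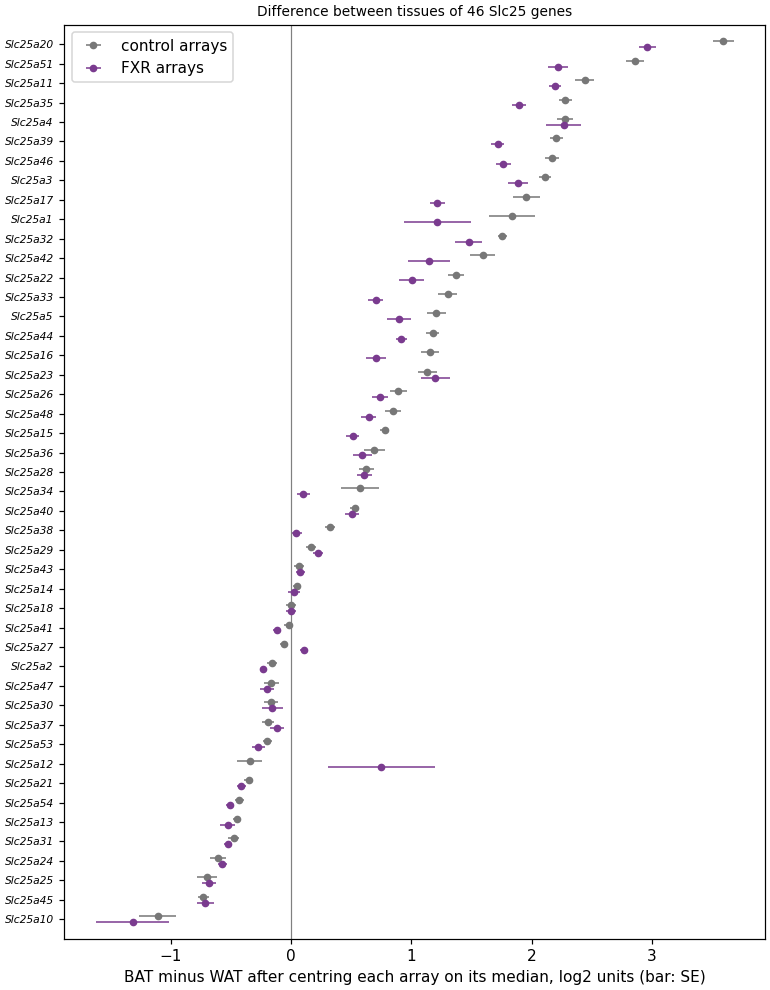
BAT-minus-WAT difference of all 46 members in log2 units after centring each array on its median, in control (grey) and FXR (purple) arrays, with SE as bars and members ordered by the control difference. Slc25a20 is at the top with 3.59 and Slc25a10 at the bottom with -1.11, and the largest gap between the genotypes is that of Slc25a12, which lies below 0 in control and above 0 in FXR arrays.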

How the data were processed

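Total RNA of 18 adipose samples was labelled with biotin from 500 ng and hybridised to Affymetrix mouse gene arrays, per the labels' protocols. The deposited table holds 1 linear intensity per probe set and array. The authors' summarisation and normalization of the intensities are not stated in the sources used here, and the tissues do not share 1 distribution. Of 34760 probe sets, 21640 had 1 symbol, 1321 had several and 11799 had none listed. The brightest probe set per gene was used, which left 19937 genes. No dim gene was removed.

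From the deposited intensities log2(intensity + 1) was computed and tested (two-sided, limma 3.58.1, lmFit then eBayes, R 4.3.3), with Benjamini-Hochberg adjustment across every gene and calls at 0.05. Comparisons were FXR against control within BAT and within WAT, the difference of both changes over 18 arrays, and BAT against WAT within each genotype. The number of arrays limits the precision. The procedure was tested on simulated data.

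Values on every array are given for up to 10 called members per tissue by adjusted p, up to 5 for the difference of changes, the 5 largest tissue differences per direction, and Slc25a1, Slc25a4, Slc25a5, Slc25a20, Slc25a44 and Slc25a25 whatever their result. Of each list of other transport genes, up to 3 per comparison were named by adjusted p. Ucp1, Cpt2, Agk, Slc8b1, Sfxn3, Myh1, Myh2 and members named beyond these were picked with their values in view. Members, roles and lists were chosen with earlier results of these data known. Other settings were quantile normalization, median centring, a pseudocount of 16, a filter on dim genes, the mean of a gene's probe sets, a trended robust variance, a replicate block, all arrays in 1 fit, and arrays left out.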

Additional observations from a re-analysis of the deposited data

Results flagged for a closer look

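Of 84 groups of arrays examined, 7 had an array far from the rest of its group by Dixon's test, where chance gives about 1 in 20. In WAT these were Slc25a22 at 6.78 on FXR WAT 3 (others 6.92 to 6.93), Slc25a11 at 7.24 on control WAT 4 (others 7.00 to 7.03) and Slc25a38 at 6.85 on control WAT 1 (others 6.95 to 6.96). In BAT they were Slc25a15 at 7.50 on FXR BAT 1 (others 7.68 to 7.72), Slc25a12 at 7.77 on control BAT 3 (others 7.19 to 7.30), Slc25a4 at 11.34 on control BAT 5 (others 11.51 to 11.57) and Slc25a10 at 7.62 on control BAT 5 (others 8.18 to 8.36).

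The change with FXR differed between the tissues, in the test of that difference (limma, WAT change minus BAT change), for Slc25a17 by 0.68, Slc25a51 by 0.57, Slc25a20 by 0.57, Slc25a33 by 0.53, Slc25a39 by 0.42, Slc25a16 by 0.39, Slc25a46 by 0.34, Slc25a35 by 0.32, Slc25a38 by 0.22 and Slc25a27 by -0.23. Over all settings the adjusted p reached 0.470 for Slc25a35, 0.241 for Slc25a39, 0.220 for Slc25a16, 0.199 for Slc25a46, 0.186 for Slc25a20, 0.106 for Slc25a38 and 0.0951 for Slc25a27, and stayed below 0.05 for Slc25a17, Slc25a51 and Slc25a33.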

How the results depend on the processing

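Of the 16 members called in BAT, 6 kept their call in every setting tried and 14 in every fit that left out 1 array; of the 10 called for the difference of changes, 3 and 8 did. Leaving out 1 array gave 2 to 3 higher and 12 to 14 lower members in BAT, 0 higher and 0 to 1 lower in WAT, 7 to 10 higher and 1 to 2 lower for the difference of changes, 42 to 43 higher and 1 lower between control tissues, and 43 higher and 0 to 1 lower between FXR tissues. Over all genes it gave 976 to 1623 higher and 1222 to 2062 lower in BAT. In WAT it gave 23 to 243 higher and 22 to 93 lower genes, and for the difference of changes 627 to 1069 and 279 to 621. Quantile normalization gave 8 lower members in BAT and 3 higher and 0 lower for the difference of changes. Between control tissues it gave 28 higher and 10 lower members (all genes 5811 and 5736). Between FXR tissues it gave 29 higher and 9 lower (all genes 5367 and 5469). Median centring gave 27 higher and 14 lower between control tissues and 26 and 12 between FXR tissues. Without control BAT 2 and 4, 7 members fell in BAT. Without FXR BAT 1, 2 and 4, chosen after seeing the data, 1 rose in BAT and 1 was lower between FXR tissues. All 18 arrays in 1 fit gave 1 lower in WAT. The cause was not tested.

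Among called members and those given in full whatever their result, signs turned for these. In BAT, Slc25a25 was -0.039 under quantile normalization, -0.048 with centring, -0.032 without FXR BAT 1, 2 and 4, and -0.0082 to 0.066 with 1 array left out (lowest without control BAT 5). Slc25a4 was -0.25 without FXR BAT 1, 2 and 4 and -0.0088 to 0.17 with 1 array left out (lowest without FXR BAT 1). In WAT, Slc25a4 was -0.025 under quantile normalization and -0.00031 to 0.058 with 1 array left out (lowest without control WAT 1). There Slc25a1 ran from -0.034 to 0.32 and Slc25a25 from -0.086 to 0.024, turning without control WAT 3. Between control tissues Slc25a25 ran from -0.071 to 0.039, turning without control BAT 5 or control WAT 3.

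Control and FXR arrays of the same number within a tissue were compared by correlating their deviations from the group means. The correlations were -0.49 to 0.28 in BAT (1 of 5 over 0.1) and 0.01 to 0.16 in WAT (1 of 4). Pairs with different numbers gave -0.34 to 0.42 in BAT (6 of 20 over 0.1) and -0.24 to 0.13 in WAT (2 of 12). BAT arrays were not compared with WAT arrays in this way, so a pairing of the tissues by animal was not tested. With the replicate block, 2 members rose and 14 fell in BAT (all genes 1141 and 1600). In WAT 0 rose and 0 fell (all genes 135 and 102). Dim signal limits what can be seen, in WAT above all.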
